A study of Mus musculus with 2 samples.

Results

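Levels of 42 genes of glucose transport, glycolysis and the pentose phosphate pathway were read from RNA of E14TG2a mouse embryonic stem (ES) cells. The 42 genes were chosen by symbol, as the isozymes and transporters that serve each step, and all 42 were found among the 28592 genes of the deposited table. E14TG2a is an established male line deficient in the purine salvage gene Hprt. The cells were grown in 2i/LIF, a medium in which inhibitors of MEK and GSK3 together with leukaemia inhibitory factor keep them naive, in what is called the ground state. The series has this 1 group with 2 replicates, made from total RNA after removal of ribosomal RNA, and no second condition. Levels are FPKM, which scales the fragments of a gene by its length and by the size of the library, so that genes of different length can be set side by side. The column totals were 946498 FPKM for replicate 1 and 928174 FPKM for replicate 2, and read numbers were not given. Nothing in the labels tells whether separate cultures were used, so SDs may reflect technical spread alone. All 10 markers of naive ES cells were at 11.4 to 7123 FPKM. None of 8 fibroblast markers reached 1 FPKM, and their summed level was 0.415 in replicate 1 and 3.24 in replicate 2.

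Glycolysis splits glucose into pyruvate, which lactate dehydrogenase turns into lactate for export, and the pentose phosphate pathway branches off after the first phosphorylation to make NADPH and ribose. Most steps are served by several isozymes, encoded by separate genes and typical of different tissues, such as muscle, liver, brain or blood cells. Naive ES cells are known to use both glycolysis and mitochondrial respiration. Here "isoform" means such a separate gene. Splice forms of 1 gene, such as the M1 and M2 forms of pyruvate kinase from Pkm, were not told apart, because the table has 1 row per gene.

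These genes were on the whole abundant, and at nearly every step 1 isoform carried most of the RNA. With detection set at 1 FPKM or more in each replicate, 38 of the 42 genes (90.5%) were detected, against 39.4% of all genes in the table and 50.6% of RefSeq protein-coding genes. Their median level was 36.4 ± 0.494 FPKM (SD of the replicate medians, n = 2), against 0.233 for all genes and 12.7 for detected genes. A level of 100 FPKM or more in each replicate was reached by 14 of the 42, against 3.61% of all genes. The highest were Gapdh, Pkm, Aldoa and Pgk1, which held 54.7% of the summed FPKM of the 42 genes in replicate 1 and 54.3% in replicate 2. The 4 genes below detection were Slc2a2 and Fbp1, typical of liver, Hk3, typical of leukocytes, and Pklr, typical of liver and red blood cells. In RNA from whole cultures, a low level in every cell and a higher level in a few cells cannot be told apart.

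**Figure D1:**
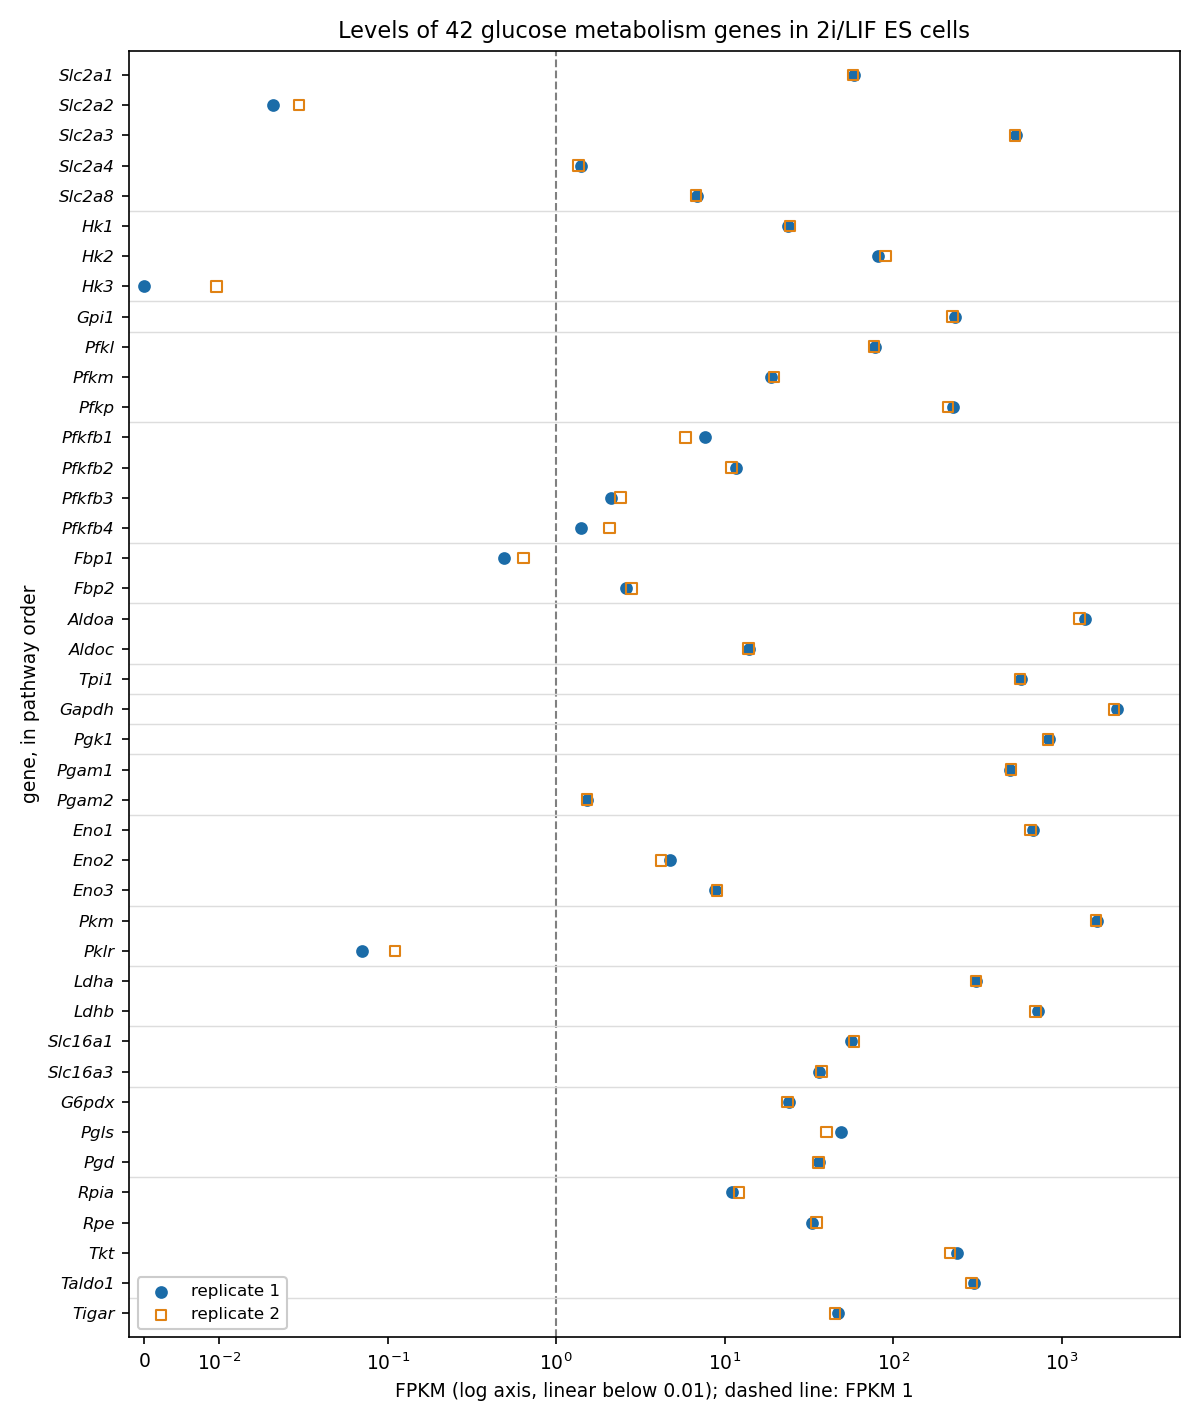
FPKM of each of the 42 genes in replicate 1 (filled circles) and replicate 2 (open squares), in pathway order, on a log axis that is linear below 0.01. Grey lines separate the steps, the dashed line marks the detection limit of 1 FPKM, and 38 genes lie to its right in both replicates.

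The replicates were close at these levels. Of the 38 members with a mean of 1 FPKM or more, 0 differed by 1.5-fold or more between the replicates, against 2.65% of all genes at that level. The widest was Pfkfb4, with 1.41 FPKM in replicate 1 and 2.07 in replicate 2. The median absolute log2 ratio between replicates, without a pseudocount, was 0.05 for these members and 0.09 for the 11483 genes of that level above 0 in both. Of the 14 members at a mean of at least 100 FPKM, 13 were lower in replicate 2, as were 59.9% of all 1053 genes at that level, and the median log2 ratio of replicate 2 to replicate 1 was -0.05 for the members and -0.02 for those genes.

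Isoforms of the same step were compared at 11 steps served by 30 of the genes. Each pair within a step was compared in both replicates, which gave 31 pairs. In 27 of the 31 pairs (87.1%) the isoforms lay at least 2-fold apart in the same direction in both replicates, on the log2(FPKM + 1) scale, which understates differences of low genes. Over all pairs of genes in the table that share was 56.9%. With both isoforms detected it was 19 of 23 pairs (82.6%), and over all pairs of detected genes 68.1%. Both isoforms of a pair were measured in the same 2 libraries, and an exact paired permutation test over 2 libraries cannot go below a two-sided p of 0.50, so these differences are given with their replicate spread and no test. The leading isoform of a step was taken as the one with the highest mean FPKM in these data, so leading isoforms are higher by definition. Those of the 11 steps had a median of 497 FPKM and the 19 other isoforms a median of 6.77 FPKM. The leading isoform was the same in both replicates at every one of the 11 steps.

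**Figure D2:**
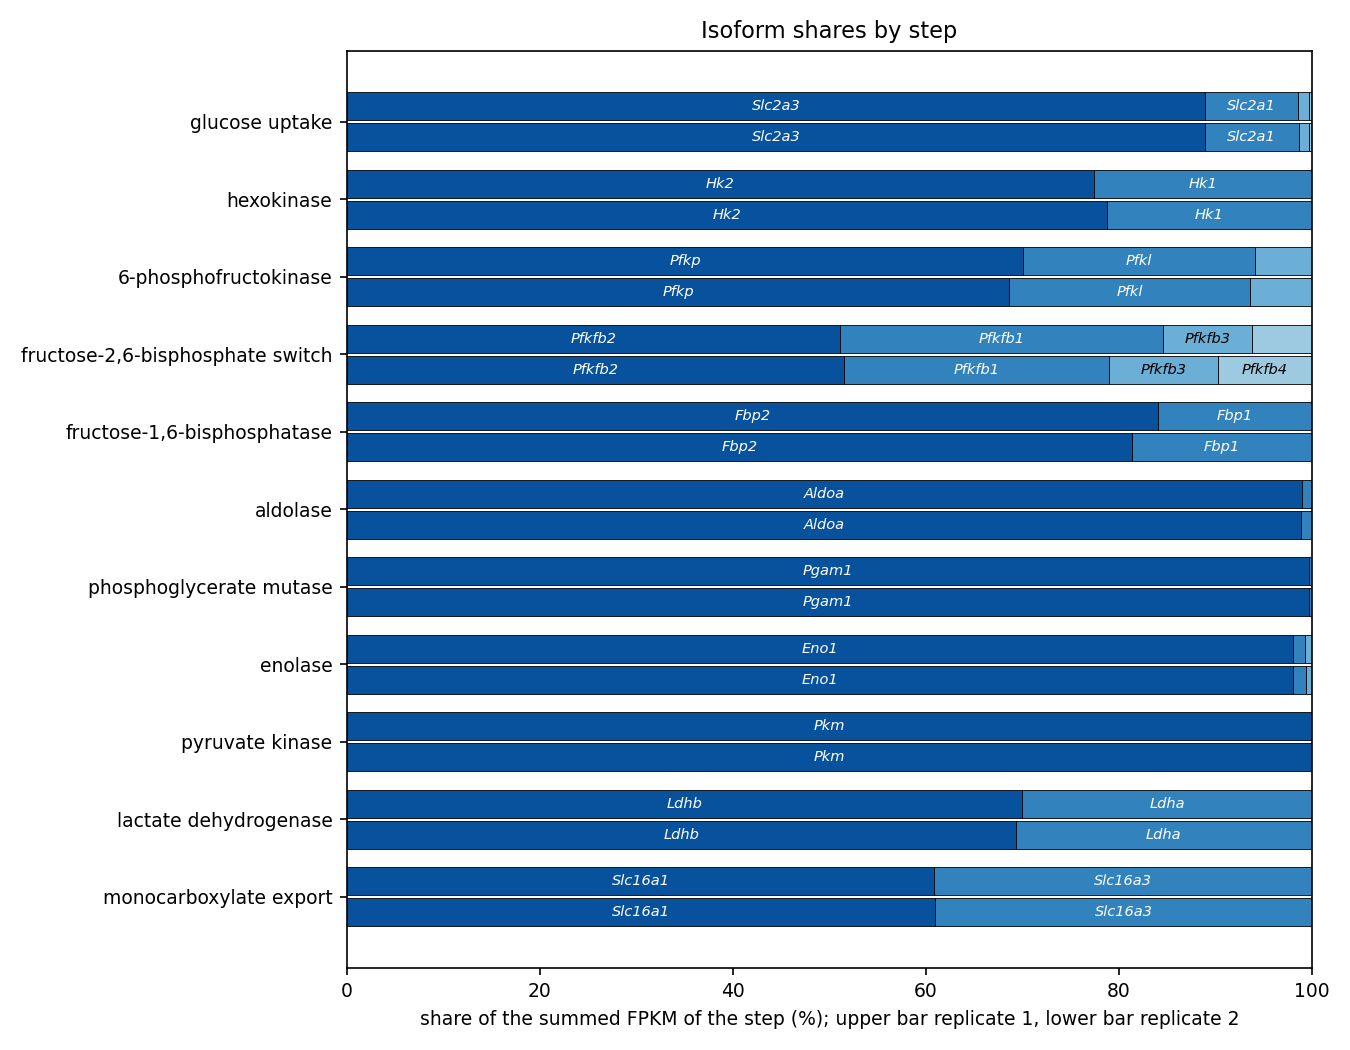
Share of the summed FPKM of a step (percent) held by each isoform at the 11 steps with more than 1 isoform, replicate 1 in the upper and replicate 2 in the lower bar, darkest for the leading isoform. Pkm, Pgam1, Aldoa and Eno1 fill nearly the whole bar, while the Pfkfb and Slc16a steps are divided.

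Glucose enters cells through the GLUT family of facilitative transporters. Slc2a3, which encodes the high-affinity transporter GLUT3 of neurons and early embryos, was at 532 FPKM in replicate 1 and 526 in replicate 2. Slc2a1, the widely expressed GLUT1, was at 58.2 and 57.5 FPKM. Slc2a3 thus exceeded Slc2a1 by 9.14-fold in replicate 1 and 9.16-fold in replicate 2, a difference of 3.17 ± 0.0017 in log2(FPKM + 1) (SD, n = 2). The intracellular GLUT8 gene Slc2a8 was lower, at 6.82 and 6.74 FPKM. The insulin-responsive GLUT4 gene Slc2a4, typical of muscle and fat, was at 1.40 and 1.35, just above the detection limit. The GLUT2 gene Slc2a2 of liver and pancreatic beta cells was at 0.0208 and 0.0297 FPKM. Slc2a3 held 88.9% of the summed FPKM of the 5 transporters in each replicate and Slc2a1 9.73% and 9.71%. Of 9 other hexose transporter genes, 7 further GLUT genes and the sodium-coupled Slc5a1 and Slc5a2, none was detected, and the highest single value was 0.526 FPKM.

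Slc2a3 lies beside a core gene of the ES cell state. On GRCm38 its RefSeq span is chromosome 6, 122727809 to 122802363, and the nearest gene of the table is Nanog (chromosome 6, 122707489 to 122714633), 13175 bases away with no other placed gene of the table between them. Nanog, a pluripotency transcription factor, was at 267 and 269 FPKM, lower than Slc2a3 in both replicates.

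The promoters of a detected and an undetected transporter are shown as an example, picked because they differ in CpG content. Their contrast is thus no evidence of a link between CpG and level, and no promoter was matched for Slc2a3. Each sequence gives the 250 bases before the RefSeq start on GRCm38.p6, on the strand of the gene and 5′ to 3′, with every CpG dinucleotide in capitals. Slc2a1 (chr4:119108495-119108744, plus strand) has 13 CpG in these bases and Slc2a2 (chr3:28697653-28697902, plus strand) has 2.
Slc2a1: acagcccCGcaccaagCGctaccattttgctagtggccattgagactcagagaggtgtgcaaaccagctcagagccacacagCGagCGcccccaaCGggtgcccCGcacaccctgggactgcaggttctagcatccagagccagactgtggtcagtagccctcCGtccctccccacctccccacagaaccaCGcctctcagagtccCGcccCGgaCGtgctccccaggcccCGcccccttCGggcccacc
Slc2a2: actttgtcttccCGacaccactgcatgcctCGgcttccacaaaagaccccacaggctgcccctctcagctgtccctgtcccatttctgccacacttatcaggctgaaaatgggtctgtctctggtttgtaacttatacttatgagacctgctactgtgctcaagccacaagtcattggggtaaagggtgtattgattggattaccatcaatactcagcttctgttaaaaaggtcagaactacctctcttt

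Hexokinases trap glucose by phosphorylating it. Hk2, the isoform of muscle, fat, embryonic and tumour cells, was at 80.8 FPKM in replicate 1 and 90.1 in replicate 2, and Hk1, the broadly expressed isoform, at 23.6 and 24.3 FPKM. Hk2 exceeded Hk1 by 3.42-fold and 3.70-fold in the replicates, a difference of 1.79 ± 0.0810 in log2(FPKM + 1) (SD, n = 2). It held 77.4% and 78.7% of the summed FPKM of Hk1, Hk2 and Hk3. Hk3, the isoform of leukocytes, had a listed value of 0 in replicate 1 and 0.00963 FPKM in replicate 2. Adpgk, which uses ADP in place of ATP for the same reaction, was detected at 17.5 in each replicate. It is not counted in the hexokinase sum or shares. Gpi1, the only gene of the isomerase step that follows, was at 231 and 223 FPKM.

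Phosphofructokinase commits the sugar to glycolysis. All 3 of its subunit genes were detected, in the same order in both replicates. Pfkp, the platelet type, was at 225 and 211 FPKM. Pfkl, the liver type, was at 77.4 and 76.9 FPKM, and Pfkm, the muscle type, at 18.9 and 19.6 FPKM. Pfkp exceeded Pfkl by 2.91-fold and 2.75-fold, and Pfkm by 11.9-fold and 10.8-fold, and its share of the step was 70.1% and 68.7%. The active enzyme is a tetramer of these subunits, and the RNA levels do not show how they assemble.

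The PFKFB enzymes make and remove fructose-2,6-bisphosphate, the small molecule that activates phosphofructokinase. All 4 genes were detected at low levels. Pfkfb2, the heart type, was at 11.7 and 11.0 FPKM in replicates 1 and 2, and Pfkfb1, the liver type, was at 7.67 and 5.87. Pfkfb3, the inducible form with the strongest kinase bias, was at 2.11 and 2.40 FPKM, and Pfkfb4, the testis type, was at 1.41 and 2.07. Pfkfb2 held 51.1% and 51.5% of the summed FPKM. Of the 6 pairs here, Pfkfb1 with Pfkfb2 and Pfkfb3 with Pfkfb4 lay less than 2-fold apart, and the difference of Pfkfb3 and Pfkfb4 in log2(FPKM + 1) was 0.26 ± 0.16 (SD, n = 2), the smallest of the 31 pairs relative to its spread. Tigar, a phosphatase that removes the same activator, was at 47.2 and 45.1 FPKM, above each of the 4 Pfkfb genes. Fructose-1,6-bisphosphatase, which runs the step backwards in gluconeogenesis, was near the detection limit. Its muscle gene Fbp2 was at 2.58 and 2.79 FPKM and its liver gene Fbp1 at 0.490 and 0.639. The pair are neighbours on chromosome 13, 6352 bases apart.

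From aldolase to pyruvate kinase, single isoforms took nearly all of the RNA. Aldoa, the muscle and ubiquitous aldolase, was at 1375 and 1268 FPKM in replicates 1 and 2, and Aldoc, the brain form, at 13.8 in each, so that Aldoa held 99.0% and 98.9% of the step. Triosephosphate isomerase, Tpi1, was at 573 and 565 FPKM. Gapdh, which makes the first NADH of the pathway, was the highest of the 42 genes at 2115 and 2035 FPKM. Pgk1, which makes the first ATP, was at 835 and 826 FPKM. The sperm forms Gapdhs and Pgk2 were listed at 0 in both replicates.

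Phosphoglycerate mutase showed an equally one-sided split. Pgam1, the brain and general form, was at 494 and 500 FPKM, and Pgam2, the muscle form, was at 1.52 in each replicate. Pgam1 exceeded Pgam2 by 325-fold and 328-fold, a difference of 7.63 ± 0.010 in log2(FPKM + 1) (SD, n = 2). Their promoters are printed as the pair with the widest CpG contrast among those shown, with CpG in capitals as before. Pgam1 (chr19:41911621-41911870, plus strand) has 22 CpG in the 250 bases before its start and Pgam2 (chr11:5803797-5804046, minus strand) has 1.
Pgam1: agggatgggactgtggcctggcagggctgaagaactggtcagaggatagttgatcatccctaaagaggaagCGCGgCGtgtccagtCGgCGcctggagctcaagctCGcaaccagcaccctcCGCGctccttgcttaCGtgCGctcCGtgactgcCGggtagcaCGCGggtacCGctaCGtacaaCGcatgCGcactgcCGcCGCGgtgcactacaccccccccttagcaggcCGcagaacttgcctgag
Pgam2: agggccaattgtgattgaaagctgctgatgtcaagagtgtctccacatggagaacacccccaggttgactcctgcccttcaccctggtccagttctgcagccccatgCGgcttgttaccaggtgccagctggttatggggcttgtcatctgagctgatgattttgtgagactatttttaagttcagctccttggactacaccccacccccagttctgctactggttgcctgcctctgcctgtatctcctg

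Enolase and pyruvate kinase followed the same form. Eno1, the ubiquitous enolase, was at 674 and 650 FPKM and held 98.0% of the step in each replicate. Eno3, the muscle enolase, was at 8.75 and 8.98 FPKM, and Eno2, the neuronal one, was at 4.75 and 4.17. Both minor enolases were therefore detected, and they lay less than 2-fold apart on the log2(FPKM + 1) scale. The span of Eno3 overlaps that of Pfn1, an abundant actin-binding protein gene at 294 and 274 FPKM, so the low level of Eno3 is uncertain. Pkm was at 1620 and 1591 FPKM. Pklr, the pyruvate kinase of liver and red blood cells, was at 0.0704 and 0.110 FPKM.

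Lactate dehydrogenase was one of the divided steps. Ldhb, the heart-type subunit, was at 725 and 699 FPKM, and Ldha, the muscle-type subunit, was at 311 and 309 FPKM. Ldhb exceeded Ldha by 2.33-fold in replicate 1 and 2.26-fold in replicate 2, a difference of 1.20 ± 0.032 in log2(FPKM + 1) (SD, n = 2), and held 70.0% and 69.3% of the step. Ldhc, the testis form, lies 5635 bases from Ldha and was at 5.73 and 5.42 FPKM. Here the order of levels and the order of promoter CpG were opposite, which is why this pair is printed. Ldha (chr7:46845554-46845803, plus strand) has 25 CpG in the 250 bases before a RefSeq start, the start with its most CpG-rich window. Ldhb (chr6:142507958-142508207, minus strand) has 14 in the 250 bases before its start.
Ldha: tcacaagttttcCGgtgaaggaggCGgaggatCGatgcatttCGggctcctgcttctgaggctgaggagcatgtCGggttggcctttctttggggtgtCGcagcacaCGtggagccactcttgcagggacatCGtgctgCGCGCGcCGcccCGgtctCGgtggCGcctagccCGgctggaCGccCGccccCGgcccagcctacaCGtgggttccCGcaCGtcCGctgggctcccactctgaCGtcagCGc
Ldhb: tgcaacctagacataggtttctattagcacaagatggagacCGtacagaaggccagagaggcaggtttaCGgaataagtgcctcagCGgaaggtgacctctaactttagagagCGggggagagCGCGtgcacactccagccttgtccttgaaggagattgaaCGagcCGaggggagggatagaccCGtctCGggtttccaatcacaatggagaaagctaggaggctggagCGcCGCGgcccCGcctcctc

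Lactate leaves through monocarboxylate transporters. Slc16a1, the MCT1 gene, was at 56.0 and 58.5 FPKM and Slc16a3, the MCT4 gene typical of highly glycolytic cells, at 36.0 and 37.4. Slc16a1 exceeded Slc16a3 by 1.56-fold in each replicate, a difference of 0.63 ± 0.0059 in log2(FPKM + 1) (SD, n = 2). This pair thus stayed under the 2-fold limit. The replicate values of Slc16a1 and Slc16a3 did not overlap. Slc16a1 held 60.9% and 61.0% of this step. Bsg, the chaperone that brings both transporters to the membrane, was at 221 in each replicate, above both of them, while Slc16a7 and Slc16a8 were not detected.

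Summed over isoforms, the steps of the pathway differed widely in level. Hexokinase, without Adpgk, had 104 and 114 FPKM in replicates 1 and 2, and monocarboxylate transport had 92.1 and 95.9. These were the lowest sums among the 13 steps from uptake to export. Phosphofructokinase, with 322 and 308 FPKM, and Gpi1 were next. Glucose uptake summed to 599 and 592 FPKM, enolase to 687 and 664 and lactate dehydrogenase to 1035 and 1008. Aldolase reached 1389 and 1282 FPKM. Each of the 7 enzyme steps from aldolase to pyruvate kinase was above each of the 3 steps from hexokinase to phosphofructokinase in both replicates. These are RNA levels and say nothing of enzyme activity or flux.

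**Figure D3:**
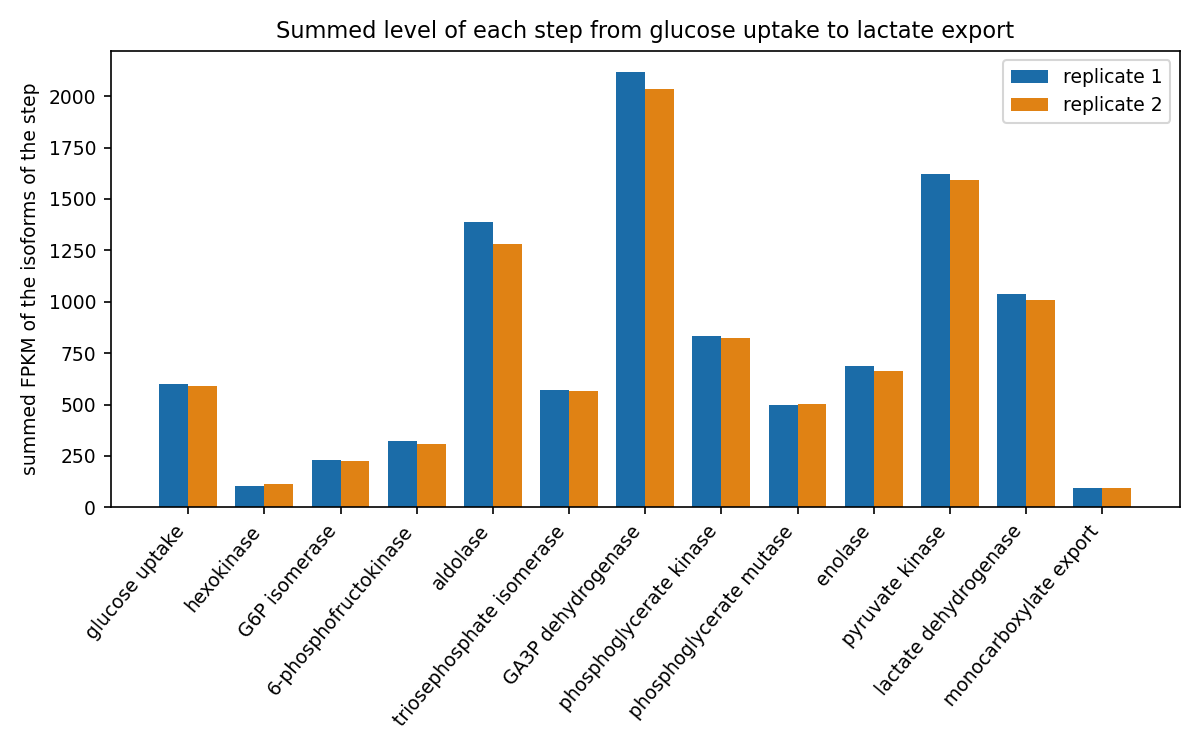
Summed FPKM of the isoforms of each of 13 steps from glucose uptake to lactate export, replicate 1 left and replicate 2 right, on a linear axis from 0. The sums for the steps from aldolase to lactate dehydrogenase lie between 496 and 2115, above those of hexokinase, isomerase and phosphofructokinase, which lie between 104 and 322.

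All 7 pentose phosphate genes were detected. The oxidative arm, which makes NADPH, was even and moderate. Its entry enzyme G6pdx, on the X chromosome, was at 24.0 and 23.5 FPKM, Pgd was at 36.1 in each replicate, and the lactonase Pgls was at 48.8 and 40.1. The non-oxidative arm, which interconverts sugar phosphates, was uneven. Transaldolase (Taldo1) was at 300 and 291 FPKM and transketolase (Tkt) at 238 and 216. The epimerase Rpe was at 33.0 and 34.9 FPKM and the isomerase Rpia at 11.0 and 12.1, the lowest of the 7. Tkt and Taldo1 were each above every gene of the oxidative arm in both replicates, while Rpe lay among them and Rpia below. The transketolase-like genes Tktl1 and Tktl2 were not detected, at 0.0717 to 0.252 FPKM. Downstream of the pathway, Prps1 and Prps2, which activate ribose for nucleotide synthesis, were at 71.7 and 78.4 and at 29.0 and 29.5 FPKM.

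Several neighbours in the order of levels could not be told apart. The replicate values of Tkt (238 and 216), Gpi1 (231 and 223) and Pfkp (225 and 211) overlapped. Those of Slc2a1 (58.2 and 57.5) and Slc16a1 (56.0 and 58.5) overlapped too, as did those of Pgls (48.8 and 40.1) and Tigar (47.2 and 45.1). Lower down, Hk1 overlapped with G6pdx, Slc16a3 with Pgd, Pfkfb2 with Rpia, Pfkfb1 with Slc2a8, and Pfkfb4 with Pgam2.

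The wider pathway was described with 58 further genes in 6 lists, of which 30 were detected (51.7%), a share near the 50.6% of RefSeq protein-coding genes. Detection was 0 of 9 for other hexose transporters, 5 of 9 for other glycolytic isozymes, 2 of 4 for other lactate export genes and 4 of 8 for other pentose phosphate genes. It was 12 of 17 for gluconeogenesis and glycogen genes and 7 of 11 for transcriptional and signalling regulators. In the gluconeogenesis list the cytosolic enzyme Pck1 was listed at 0 and liver G6pc was at 0.0118 and 0.0117 FPKM, whereas mitochondrial Pck2 was at 20.7 and 19.2. Among the regulators, the hypoxia factor subunit Hif1a was at 39.0 and 39.2 FPKM and its relative Epas1 at 0.677 and 0.482. Mycn was at 35.5 and 34.3 FPKM and Myc, its relative that also drives glycolytic genes in many cells, at 0.207 and 0.317. Txnip, an inhibitor of glucose uptake, was at 90.5 and 83.1 FPKM. This was above Slc2a1 (58.2 and 57.5) but below Slc2a3, the leading transporter (532 and 526). For scale, all 17 genes of the TCA cycle, the mitochondrial pathway that takes up pyruvate carbon, were detected with a median of 68.3 FPKM and means from 19.3 to 138. The median over all 42 glucose genes, minor isoforms included, was 36.4 FPKM, below that of the TCA genes. That of the 19 glycolytic enzyme genes was 85.4. The median of 497 for the 11 leading isoforms is not a like comparison, because they were picked as the highest of their steps. Means of the 42 genes ran from 0.00482 FPKM for Hk3 to 2075 for Gapdh.

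The genes lie on 15 chromosomes, and chromosome 6 has the most of them. It holds 8 of the 42 (19.0%), against 5.46% of the 23814 genes of the table with a RefSeq position. They are Slc2a3, Hk2, Tpi1, Gapdh, Eno2, Ldhb, Rpia and Tigar. Tpi1 (124810586 to 124814158) starts 40912 bases after Eno2 ends, and Gapdh (125161852 to 125166467) starts 347693 bases after Tpi1 ends. This neighbourhood held levels as far apart as 4.46 ± 0.405 FPKM for Eno2 and 2075 ± 56.8 FPKM for Gapdh (SD, n = 2). No test was made, because the genes were chosen by name.

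Promoter windows of 300 bases, 250 before and 50 after each RefSeq start, were matched for 40 of the 42 genes, all except Slc2a3 and Slc2a4, with 59 windows in all. The median number of CpG per window was 16 for these genes and 7 over all 32851 RefSeq windows, which belong to 27025 genes. Taking the most CpG-rich window of each gene, the leading isoforms had a median of 24.5 CpG (10 genes) and the other isoforms 14.5 (18 genes). For all genes with a window the median was 14 and for detected genes 22. The leading isoform had more CpG than every other isoform of its step at 7 of 10 steps. The 3 exceptions were the Pfkfb genes, the Fbp pair and the lactate dehydrogenases. Leading isoforms were picked by FPKM, and no such count was made for other sets of genes. The count can therefore not be read as particular to these steps. Across the 40 genes, Spearman's rho between CpG number and FPKM was 0.56 in replicate 1 and 0.57 in replicate 2. Across all 18824 genes with a window it was 0.61 in each. Among detected genes alone it was 0.409 in replicate 1 and 0.422 in replicate 2 over 36 of these genes, against 0.0877 and 0.0898 over all 8628 detected genes with a window. Genes are not independent replicates, and which start site these cells use is not known from the table.

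**Figure D4:**
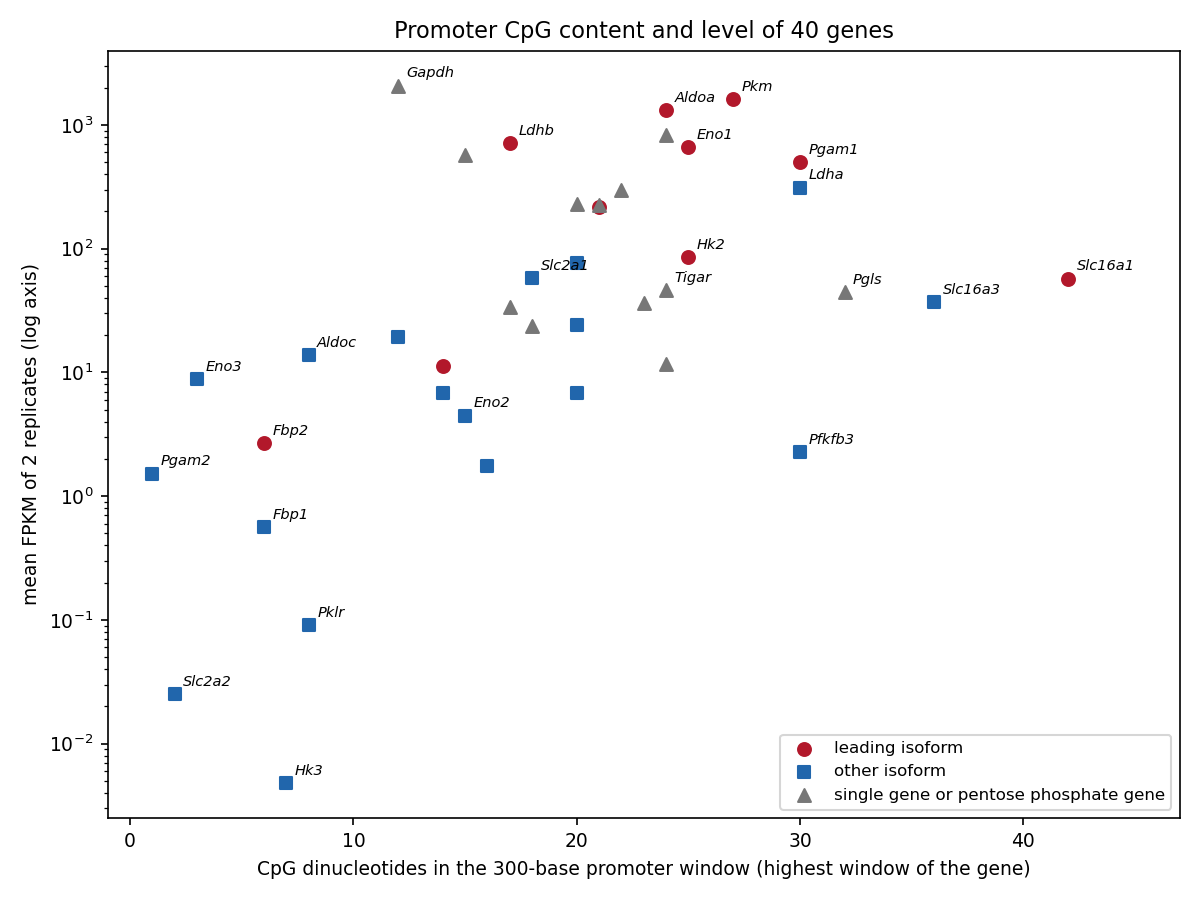
CpG dinucleotides in the most CpG-rich 300-base promoter window of each of 40 genes against mean FPKM of 2 replicates (log axis), by class of gene. Slc2a2, Pgam2, Hk3 and Pklr sit at few CpG and low FPKM, Pfkfb3 has 30 CpG at 2.26 FPKM and Gapdh has 12 CpG at 2075 FPKM.

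Short motifs were counted in the same windows on both strands. Windows of 1 gene can overlap, as for Aldoa and Eno1, and each was counted, so 1 site can count more than once. The shares are set against all windows, and not against those of detected genes, which have more CpG. The letters ACGTG, the core of sites for hypoxia-inducible factors, were in 22 of the 59 windows (37.3%), against 19.6% of all windows. The E-box CACGTG, bound by Myc proteins among others and always containing ACGTG, was in 6 (10.2%), against 7.15%. The GC box GGGCGG, bound by Sp1, was in 31 (52.5%), against 35.7%, and TATAAA in 4 (6.78%), against 13.6%. The printed Ldha sequence holds the hypoxia core, the E-box and the GC box, that of Slc2a1 the hypoxia core and the GC box, and that of Pgam1 the hypoxia core. The printed sequences of Ldhb, Pgam2 and Slc2a2 hold none of these 3. All 3 contain CpG, which is itself more frequent in these windows, and its part in these shares was not tested. A match is a description of letters and not of binding.

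Some levels are less certain because of similar or overlapping genes. Pgk1-rs7, a pseudogene copy of Pgk1 on chromosome 12, was listed at 74.0 and 75.8 FPKM, and how reads were divided between it and Pgk1 is not known. It was the highest of 4 copies named after these genes in the table. The other 3, Aldoart1, Aldoart2 and G6pd2, were at 0 or, for Aldoart2 in replicate 1, at 0.0358. Spans of 15 of the 42 genes overlap that of another gene of the table. Among them are Pfkp with Pitrm1 (48.4 and 48.1 FPKM), Slc16a3 with Csnk1d (19.6 and 21.7), G6pdx with Ikbkg (15.8 and 17.5), Pfkm with Senp1 (14.3 and 15.5) and Pfkfb1 with Apex2 (9.63 and 10.1). The libraries kept strand, but whether quantification used it is not given in the sources used here.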

How the data were processed

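Total RNA was depleted of ribosomal RNA with Ribo-Zero Gold and sequenced as stranded libraries on an Illumina HiSeq system, per the labels' protocols. The authors deposited 1 table of FPKM values with genes in rows and the replicates in columns. The tools CASAVA, TopHat2 and Cufflinks and the build GRCm38 (mm10) are named, per the submitters' processing notes. Their versions, the annotation release, any filters and the use of strand are not given in the sources. Read depth is therefore unknown and no counting interval was computed. Because Cufflinks estimates abundances, an FPKM of 0 can be a failed estimate and is written as listed at 0.

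Columns were matched to replicates by the sample descriptions. Symbols were matched by stable gene identifier for 28256 of 28592 genes. Spans and gene types came from RefSeq on GRCm38.p6 by current symbol, and promoter sequences from RefSeq on the same build.

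Values are given per replicate, with means ± SD over 2 replicates. Isoform differences were taken within each replicate as log2(FPKM + 1), and folds and shares without a pseudocount. No test was made, since the series holds 1 group of 2. The 42 genes, the lists and the limits were chosen with earlier results of these data known. All 42 genes could be named, and of the other lists those detected or at 0, with G6pc, Tktl1, Tktl2, Epas1, Myc, Slc5a1, Slc16a7 and Slc16a8 named besides, after their values were seen. Some genes of the wider pathway are not reported here. The promoter comparison and the all-pairs shares were added after the values were seen. The isoform procedure was run on simulated levels above the detection limit with little replicate spread, leaving out pairs set exactly 2-fold apart. That run checks the computation only, and not the calls for low genes. Computation used Python 3.11.15, pandas 2.3.3, numpy 2.4.6, scipy 1.17.1 and matplotlib 3.10.9. Alternatives were other pseudocounts, detection limits, rescaling to TPM and leaving out each replicate.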

Additional observations from a re-analysis of the deposited data

How the results depend on the processing

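The counts changed little with the processing. The 38 detected genes became 39 at a limit of 0.1 FPKM, 38 at 0.5 and 32 at 5, and were 38 after rescaling to TPM and in each replicate alone. The 27 isoform pairs at least 2-fold apart were 27 with pseudocounts of 0.1 and 0.01, after rescaling to TPM and in each replicate alone. They were 19 of 23 with both genes at a mean of at least 1 FPKM. The median level of 36.4 was 38.8 after rescaling to TPM and 45.3 over members at a mean of at least 1 FPKM, and 36.1 to 36.8 with 1 replicate left out. Rescaling to TPM put 1 gene past 1.5-fold between replicates where FPKM had 0. No isoform difference changed sign under any of these settings, but pseudocounts of 0.1 and 0.01 moved 22 and 23 of the 31 log2 differences by more than their SD over 2 replicates, and rescaling to TPM moved 12. Isoform shares are ratios within a library, which rescaling cannot change. No paired analysis was possible because the series has 1 group, so replicate numbers pair no groups. Isoforms were compared within each library throughout. Depth limits the low genes most, and levels under 1 FPKM are not ordered here beyond their replicate values.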
